A study of Homo sapiens with 12 samples.

Results

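The mRNA levels of 9 enzymes of the tricarboxylic acid cycle and its refilling were compared between hydroxychloroquine (HCQ)-evolved and control cancer cells: CS, IDH2, IDH3A, OGDH, SUCLA2, SUCLG1, FH, MDH2 and PC. They were taken by gene symbol from the deposited table of read counts, where all 9 were present among 28278 rows. Bulk polyA RNA was sequenced from OVCAR3, an ovarian cancer line, and CCL218, a colorectal cancer line. HCQ-evolved cells had been taken through 15 pulses of HCQ, each lasting 48 h, and then grown for 7 days without drug, and were at passage 15. Control cells of the same line were passaged without HCQ to passage 19. Each of the 4 groups (control OVCAR3, HCQ-evolved OVCAR3, control CCL218 and HCQ-evolved CCL218) had 3 pools of wells, named L, M and R after their place on the culture plate. All pools of a group came from a single plate, so p-values measured the spread between pools of that plate, and drug history, plate and passage number cannot be told apart. Because these were bulk pools, less mRNA per cell and fewer cells that expressed a gene cannot be told apart either.

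The tricarboxylic acid cycle runs in the mitochondrial matrix, where it oxidises acetyl groups to carbon dioxide and passes the electrons to the respiratory chain as NADH and as reduced flavin. Its intermediates also leave the cycle as material for lipids, amino acids and nucleotides, and carboxylation of pyruvate or breakdown of glutamine refills it. Many cancer cells draw on glutamine for this purpose, and HCQ blocks the acidification of lysosomes, through which cells recycle their own material.

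The 12 libraries held 31147822 to 59965861 counts, of which the 9 enzymes took 0.0918 to 0.133%. Levels are given as CPM, read counts scaled to library size, after trimmed-mean (TMM) normalization over the 12 libraries. A change is the log2 fold change of HCQ-evolved over control in edgeR's quasi-likelihood test, fitted over all genes of a line with at least 1 CPM in 3 pools, and a gene was called at an adjusted p under 0.05. Pools of a group differed in a trend with transcript length: the correlation across genes (Spearman's rho) between a pool's deviation from its line mean and transcript length was lowest in control CCL218 L (-0.511) and highest in pool R of HCQ-evolved OVCAR3 (0.566). Each of the 4 groups held pools of either sign. Some colorectal markers separated the 2 lines without overlap in the direction of their labels. No ovarian marker did so. Of the ovarian markers, SOX17 had 0 counts in all libraries, ESR1 reached at most 0.0492 CPM and WT1 at most 2.36 CPM, while PAX8 stood at 7.24 to 14.9 CPM in OVCAR3 and at 6.41 to 11.2 CPM in CCL218. Of the colorectal markers, KRT20 reached at most 0.0669 CPM, whereas VIL1 stood at 78.6 to 290.0 CPM in OVCAR3 and at 160.0 to 202.0 CPM in CCL218. LGALS4 stood at 133 to 860.0 CPM in OVCAR3 and at 731 to 1370.0 CPM in CCL218, and CDX1 at most at 0.537 CPM. CDH17 (1.71 to 4.52 CPM in OVCAR3 and 2.44 to 57.4 CPM in CCL218) and GPA33 (1.73 to 7.22 and 3.81 to 36.5 CPM) overlapped too. Between the control pools alone, edgeR's test gave CDH17 a log2 difference of 0.21 (adjusted p = 0.757), with overlap. GPA33 had 0.62 (adjusted p = 0.481), with the control CCL218 pools all higher. Without overlap, all CCL218 pools were above all OVCAR3 pools for the colorectal markers CDX2 (21.2 to 71.3 against 0.804 to 13.7 CPM) and CEACAM5 (13.0 to 67.5 against 3.71 to 7.94 CPM) and for MSLN, listed as ovarian (46.4 to 128 against 2.21 to 18.3 CPM). The ovarian markers MUC16 (13.0 to 50.1 CPM in OVCAR3 and 3.66 to 14.3 CPM in CCL218) and FOLR1 (2.01 to 6.09 and 1.60 to 3.32 CPM) ran higher in OVCAR3 with overlap. Of the 6 colorectal markers tested in CCL218, 4 were called and rose with HCQ evolution, where 6.46% of all genes were called. They were CDH17 from 3.85 ± 1.27 to 52.6 ± 6.67 CPM (SD, n = 3), GPA33 from 4.77 ± 0.834 to 34.7 ± 2.22 CPM, CEACAM5 from 14.2 ± 1.37 to 61.0 ± 6.96 CPM and CDX2 from 23.3 ± 2.86 to 67.8 ± 4.85 CPM (adjusted p = 0.0012, 0.000608, 0.00103 and 0.00275). The other 2 did not rise. LGALS4 had a log2 fold change of -0.42 (adjusted p = 0.245), with the evolved pools all below the control pools, and VIL1 of -0.02 (adjusted p = 0.924). In OVCAR3 0 of 6 were called, against 1.86% of all genes. The part of these markers in the enzymes' CCL218 values was not tested. Across genes, control pools of different lines correlated with r of 0.927 to 0.981 on the log2 scale, against 0.950 to 0.996 for pools of the same group, so the names OVCAR3 and CCL218 are used here as the labels give them; the identity of the lines was not tested. EPCAM stood at 668 to 1230.0 CPM over both lines. Of the markers of leukocytes, endothelium and fibroblasts, PTPRC, CD3E, VWF, COL3A1 and PDGFRB stayed at or below 0.219 CPM and PECAM1 and COL1A1 at or below 3.18 CPM, CD14 stood at 4.53 to 23.6 CPM, and LYZ, which many epithelial cells also make, at 1300.0 to 2760.0 CPM.

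None of the 9 enzymes changed by this test in either line. In OVCAR3, 0 of 9 were called, against 1.86% of the 12204 genes tested, and 8 of 9 had a log2 fold change above 0, with a median of 0.23 (range -0.05 to 0.55) beside a median of 0.02 over all genes. In CCL218, 0 of 9 were called, against 6.46% of the 12241 genes tested, and 4 of 9 were above 0, with a median of -0.06 (range -0.14 to 0.34) beside -0.02 over all genes. At an unadjusted p under 0.05 the count was also 0 of 9 in each line, where 16.2% and 25.2% of all genes passed, and neither DESeq2 nor limma voom called an enzyme. In no case did the 3 HCQ-evolved pools lie wholly above or below the 3 control pools, although 25.7% of genes in OVCAR3 and 36.0% in CCL218 did so. The 95% intervals were wide enough to hold changes of notable size: that of MDH2 in OVCAR3 ran from -0.06 to 1.16, and that of IDH3A in OVCAR3 from -0.45 to 1.53.

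**Figure D1:**
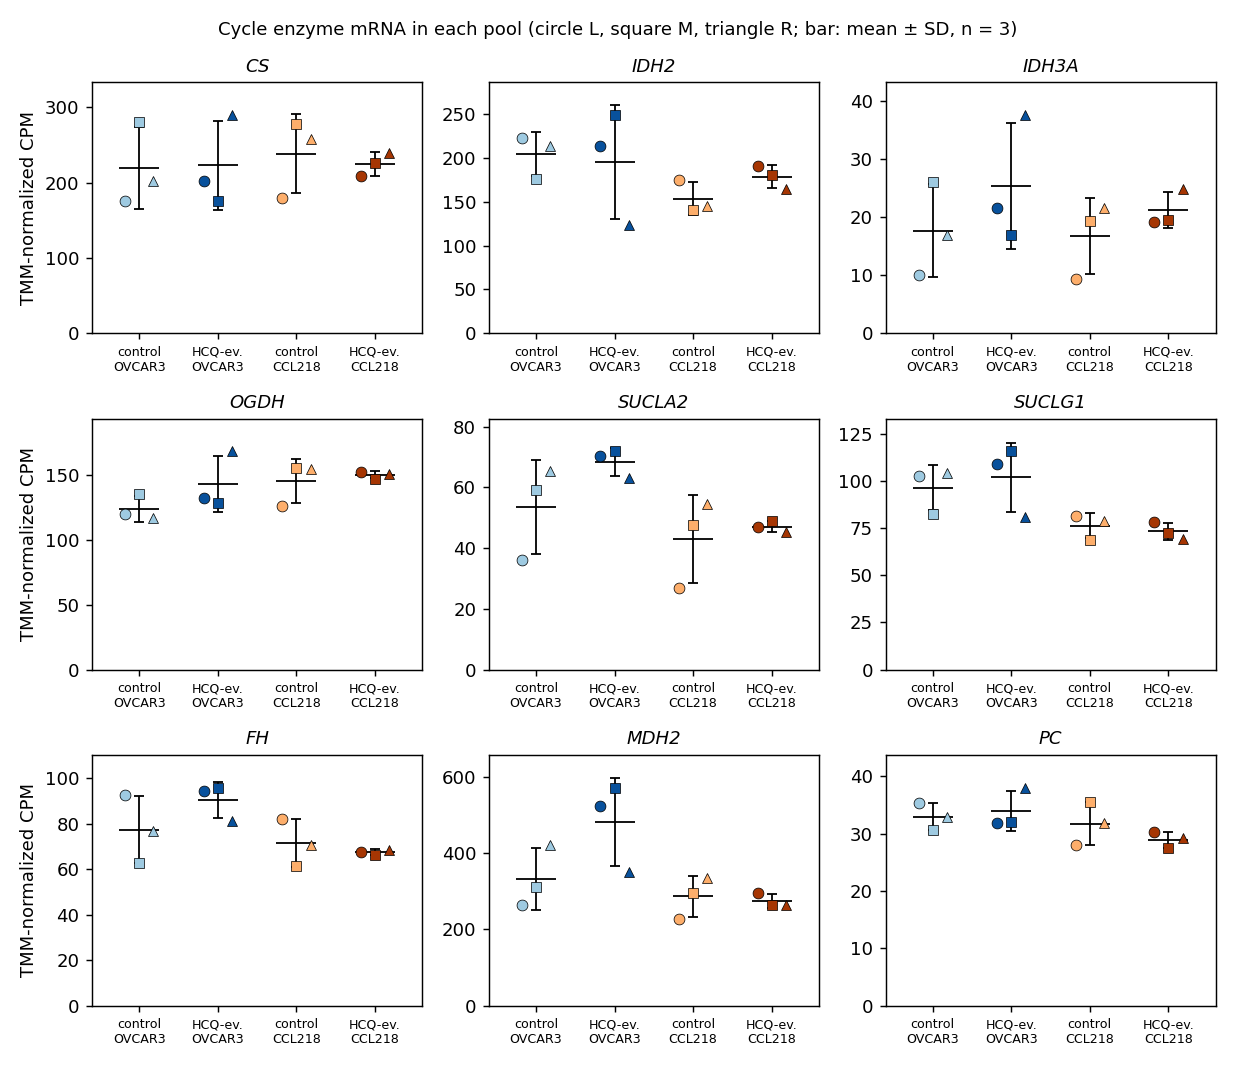
TMM-normalized CPM of each enzyme in each of the 12 pools, with 1 panel per gene; circles, squares and triangles are pools L, M and R, and bars give the mean ± SD of 3 pools. In every panel the HCQ-evolved and control pools of the same line overlap, and MDH2 shows the largest separation of means, 331 ± 80.8 CPM in control and 481 ± 116 CPM in HCQ-evolved OVCAR3.

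For the enzymes that make citrate and oxaloacetate from incoming carbon, CS and PC, mRNA levels overlapped between evolved and control pools in both lines. CS, citrate synthase, joins acetyl-CoA to oxaloacetate; the gene lies at chr12:56271699-56300391 on the minus strand of hg38. Its level in pools L, M and R was 176, 280.4 and 202 CPM in control OVCAR3 and 202.5, 176 and 289.8 CPM in HCQ-evolved OVCAR3. Each group held 1 pool well above the other two, M in control and R in HCQ-evolved, and the log2 fold change was 0.04 ± 0.27 (SE, adjusted p = 0.963). In CCL218 it stood at 179.9, 278 and 258 CPM in control and at 208, 226 and 239.7 CPM in HCQ-evolved pools. The evolved pools sat inside the control range, with a log2 fold change of -0.09 ± 0.18 (adjusted p = 0.773). PC, pyruvate carboxylase (chr11:66848417-66958386, minus strand), makes oxaloacetate from pyruvate with biotin as cofactor. It was measured at 35.4, 30.6 and 32.9 CPM in control OVCAR3 and at 31.8, 32.1 and 38.0 CPM after evolution, a log2 fold change of 0.06 ± 0.18 (adjusted p = 0.898). In CCL218 the control pools had 28.0, 35.5 and 31.8 CPM and the HCQ-evolved pools 30.2, 27.5 and 29.2 CPM. The log2 fold change was -0.14 ± 0.14 (adjusted p = 0.551), the lowest of the 9 in CCL218, and all 4 groups of PC stayed between 27.5 and 38.0 CPM.

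The isocitrate dehydrogenases showed unlike profiles. IDH2, the NADP-dependent mitochondrial enzyme (chr15:90083045-90102477, minus strand), stood at 223, 176 and 213 CPM in control OVCAR3 and at 213, 249 and 124 CPM in HCQ-evolved OVCAR3. Evolved pool R was the lowest of the 6 and evolved pool M the highest, and the log2 fold change was -0.05 ± 0.26 (adjusted p = 0.950). Its sign turned without evolved pool R, where the estimate was 0.18. In CCL218, IDH2 had 175, 140.2 and 144.5 CPM in control and 191, 181 and 164 CPM in HCQ-evolved pools. Only control pool L reached into the evolved range. The log2 fold change was 0.22 ± 0.14 (adjusted p = 0.351), the smallest p of the 9 in that line. Without control CCL218 L it was 0.32 and called (adjusted p = 0.0298), but without that pool 25.2% of all genes were called as well. IDH3A, the catalytic alpha subunit of the NAD-dependent enzyme (chr15:78131498-78171945, plus strand), had 10.1, 26.1 and 16.9 CPM in control OVCAR3 and 21.6, 16.95 and 37.6 CPM in HCQ-evolved OVCAR3. The groups overlapped across most of their range. The log2 fold change of 0.54 ± 0.43 (adjusted p = 0.593) had the largest error of the 9. In CCL218 it had 9.33, 19.3 and 21.7 CPM in control and 19.2, 19.6 and 24.8 CPM in HCQ-evolved pools, a log2 fold change of 0.34 ± 0.30 (adjusted p = 0.511). Control pool L lay far below the other 5 pools there, and without it the estimate fell to 0.04. Without control OVCAR3 L and HCQ-evolved OVCAR3 R together, a setting chosen after the data were seen, the OVCAR3 estimate was -0.17 (adjusted p = 0.712).

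OGDH encodes the dehydrogenase that opens the alpha-ketoglutarate dehydrogenase complex, which yields succinyl-CoA and NADH (chr7:44606572-44709066, plus strand). In OVCAR3 it had 119.8, 135 and 117 CPM in control pools and 132, 129 and 168 CPM in HCQ-evolved pools. Control pool M exceeded evolved pools L and M, and the log2 fold change was 0.23 ± 0.19 (adjusted p = 0.608). In CCL218 the control pools had 126, 155 and 154 CPM and the evolved pools 152, 147 and 151 CPM. This was among the smallest differences in that line, with a log2 fold change of 0.05 ± 0.13 (adjusted p = 0.843) and a 95% interval from -0.25 to 0.34.

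Succinyl-CoA synthetase makes succinate and is the step of substrate-level phosphorylation. SUCLG1 encodes the alpha subunit shared by its forms (chr2:84423528-84460045, minus strand), and SUCLA2 the beta subunit of the ADP-forming enzyme (chr13:47745736-48037968, minus strand). SUCLG1 stood at 103, 82.8 and 104 CPM in control OVCAR3 and at 109, 116 and 81.2 CPM in HCQ-evolved OVCAR3, with a log2 fold change of 0.10 ± 0.20 (adjusted p = 0.860). In CCL218 it had 81.5, 68.9 and 78.7 CPM in control and 78.3, 72.6 and 69.4 CPM in evolved pools, with a log2 fold change of -0.06 ± 0.13 (adjusted p = 0.788). Its groups overlapped throughout in both lines. SUCLA2 had 36.2, 59.1 and 65.5 CPM in control OVCAR3 and 70.4, 71.9 and 63.1 CPM in HCQ-evolved OVCAR3. Only control pool R stood above the lowest evolved pool. The log2 fold change was 0.37 ± 0.25 (adjusted p = 0.534). In CCL218 it had 26.75, 47.5 and 54.6 CPM in control and 47.1, 48.9 and 45.2 CPM in evolved pools, a log2 fold change of 0.13 ± 0.25 (adjusted p = 0.771). Control pool L was again the low one, and without it the estimate was -0.13. Reads of SUCLA2, CS and FH could be split with 3, 2 and 1 annotated pseudogene copies, so their levels carry that added uncertainty.

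FH and MDH2 close the cycle from fumarate to oxaloacetate. FH, fumarate hydratase (chr1:241497511-241519799, minus strand), had 92.5, 62.8 and 76.95 CPM in control OVCAR3 and 94.3, 95.9 and 81.3 CPM in HCQ-evolved OVCAR3. Control pool L overlapped the evolved pools, and the log2 fold change was 0.25 ± 0.19 (adjusted p = 0.588). In CCL218 the values were 82.3, 61.3 and 70.6 CPM in control and 67.8, 66.2 and 68.6 CPM in evolved pools, a log2 fold change of -0.08 ± 0.14 (adjusted p = 0.735). MDH2, mitochondrial malate dehydrogenase (chr7:76048051-76067508, plus strand), had 263, 311 and 420.2 CPM in control OVCAR3 and 522, 571 and 351 CPM in HCQ-evolved OVCAR3. Evolved pools L and M lay above every control pool, while evolved pool R lay between control pools M and R. The log2 fold change of 0.55 ± 0.26 was the largest of the 9 in OVCAR3 and had the smallest p (unadjusted p = 0.0701, adjusted p = 0.358). In CCL218 it had 227, 296 and 335 CPM in control and 295, 264 and 264 CPM in evolved pools, with a log2 fold change of -0.06 ± 0.16 (adjusted p = 0.826). MDH2 ranked 2388 by p among the 12204 genes of OVCAR3 and 10456 among the 12241 genes of CCL218.

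**Figure D2:**
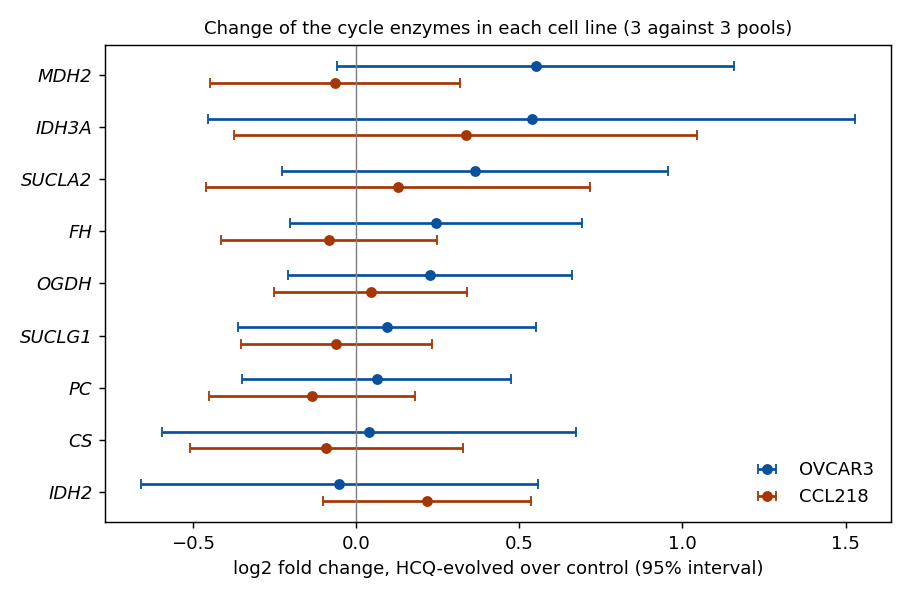
Log2 fold change of HCQ-evolved over control for the 9 enzymes in OVCAR3 and in CCL218, with 95% intervals from edgeR's fit (3 against 3 pools). Every interval includes 0; the highest estimates are MDH2 (0.55) and IDH3A (0.54) in OVCAR3.

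Whether the response differed between the lines was tested as an interaction over all 12 pools. The test called 0 of 9 enzymes, against 0.872% of 12613 genes, with 0 of 9 at an unadjusted p under 0.05. The difference, CCL218 minus OVCAR3, was below 0 for 8 of 9 enzymes. MDH2 had the largest, -0.60 ± 0.32 (95% interval -1.30 to 0.10, adjusted p = 0.672), and IDH2 was the exception with 0.29 ± 0.31 (adjusted p = 0.999). Neither DESeq2 nor limma voom called an enzyme in this comparison.

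The control pools were compared in the same fit for the level of each enzyme without drug, where 0 of 9 were called against 3.42% of genes. IDH2 was lower in control CCL218 (153 ± 18.9 CPM, SD, n = 3) than in control OVCAR3 (204 ± 24.7 CPM), a log2 difference of -0.42 ± 0.22 (adjusted p = 0.422). SUCLG1 had 76.4 ± 6.61 CPM in control CCL218 and 96.6 ± 11.9 CPM in control OVCAR3, a log2 difference of -0.34 ± 0.16 (adjusted p = 0.364). For these 2 enzymes the 3 control CCL218 pools lay below the 3 control OVCAR3 pools, as they did for 9.13% of all genes. The other 7 overlapped.

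Per kilobase of the canonical transcript, the enzymes kept a nearly fixed order of level. MDH2 was highest in 12 of 12 pools, with a group mean of 126 to 222 CPM per kilobase. CS, IDH2 and SUCLG1 followed at 57.6 to 81.9 CPM per kilobase and did not separate from each other: CS exceeded IDH2 in 6 of 12 pools, and IDH2 exceeded SUCLG1 in 7 of 12. The pools with CS above IDH2 were those whose rho with transcript length was above 0. FH (37.7 to 50.5) came below SUCLG1 in 12 of 12 pools and above OGDH (29.6 to 35.8) in 11 of 12. This order depends on the length used. All annotated exons together span 9350 bases in FH and 5209 in OGDH, against 1791 and 4193 in the canonical transcripts. OGDH exceeded SUCLA2 (20.4 to 32.4) in 9 of 12 pools, and SUCLA2 exceeded PC in 12 of 12. PC, the entry by way of pyruvate, had group means of 6.73 to 7.89 CPM per kilobase, and IDH3A was the lowest enzyme in 11 of 12 pools, at 4.10 to 6.22.

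**Figure D3:**
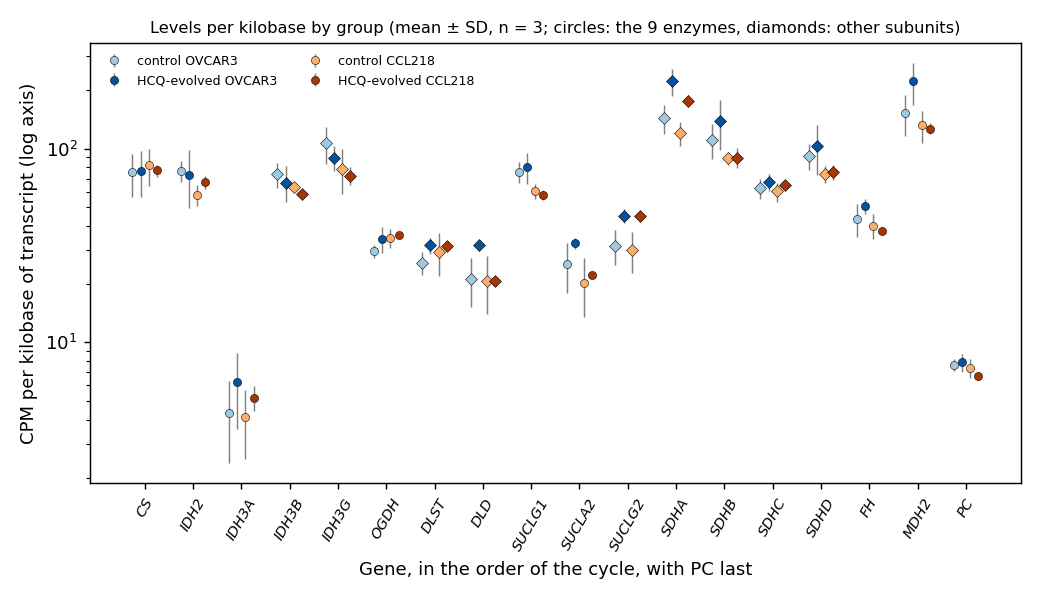
Mean CPM per kilobase of transcript (log axis; bars are SD of 3 pools) for the 9 enzymes (circles) and other subunits of the cycle (diamonds) in the 4 groups, in the order of the cycle. MDH2 stands highest and IDH3A and PC lowest among the 9 enzymes in every group.

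The partner subunits were next set beside the enzymes, as ratios of level per kilobase that were computed after the values were seen. IDH3A stood far below the other subunits of its own complex, at 0.0323 to 0.182 of IDH3B over the 12 pools and at 0.0188 to 0.123 of IDH3G. OGDH was close to DLST, the succinyltransferase core of its complex, at 1.03 to 1.43 times its level. The ratio of SUCLA2 to SUCLG2, the beta subunit of the GTP-forming enzyme, was 0.581 to 0.767 in control CCL218 and 0.491 to 0.517 in HCQ-evolved CCL218, without overlap, whereas OVCAR3 overlapped (0.709 to 0.861 in control and 0.691 to 0.773 in evolved pools). More ratios were computed than are given here, and the pools of each of the others overlapped in both lines. Of single genes, 36.0% had pools apart in CCL218. No test was made on these ratios.

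How far the enzymes moved together was described over the 12 pools, each as its deviation from the mean of its line. Over the 36 pairs of enzymes, Pearson's r had a median of 0.09 and ran from -0.86 to 0.88. IDH3A and OGDH had the highest value (0.88), and CS stood opposite to IDH2 and to SUCLG1 (-0.86 each). The points share the pools' trend with transcript length: r between an enzyme's deviation and its pool's rho was 0.89 for CS, 0.76 for IDH3A and 0.73 for OGDH, and it was -0.92 for SUCLG1, -0.73 for IDH2 and -0.72 for FH. For PC, SUCLA2 and MDH2 it lay between -0.25 and 0.30. An absolute r above 0.7 was thus found for 6 of 9 enzymes, against 36.0% of all genes. The sign did not follow transcript length throughout. IDH3A and OGDH (4083 and 4193 bases) and SUCLG1 and FH (1270 and 1791 bases) had opposite signs. So had CS and IDH2, which are of similar length (2915 and 2658 bases). PC, the longest at 4305 bases, had an r of 0.30. With each pool's rho as a covariate, chosen after the data were seen, the standard errors of the 9 were 0.10 to 0.22 in place of 0.18 to 0.43 in OVCAR3 and 0.08 to 0.21 in place of 0.13 to 0.30 in CCL218. In that fit still 0 of 9 were called in OVCAR3, against 18.8% of genes, and 0 of 9 in CCL218, against 20.3%. Its smallest adjusted p in OVCAR3 was that of MDH2 (log2 fold change 0.52, adjusted p = 0.102) and in CCL218 that of IDH2 (0.28, adjusted p = 0.0564). Between the control lines it called 1 of 9, SUCLG1 (log2 difference -0.31, adjusted p = 0.0234), against 19.4% of genes. With plate position as a replicate block in CCL218, the fit called 0 of 9, against 14.2% of genes.

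**Figure D4:**
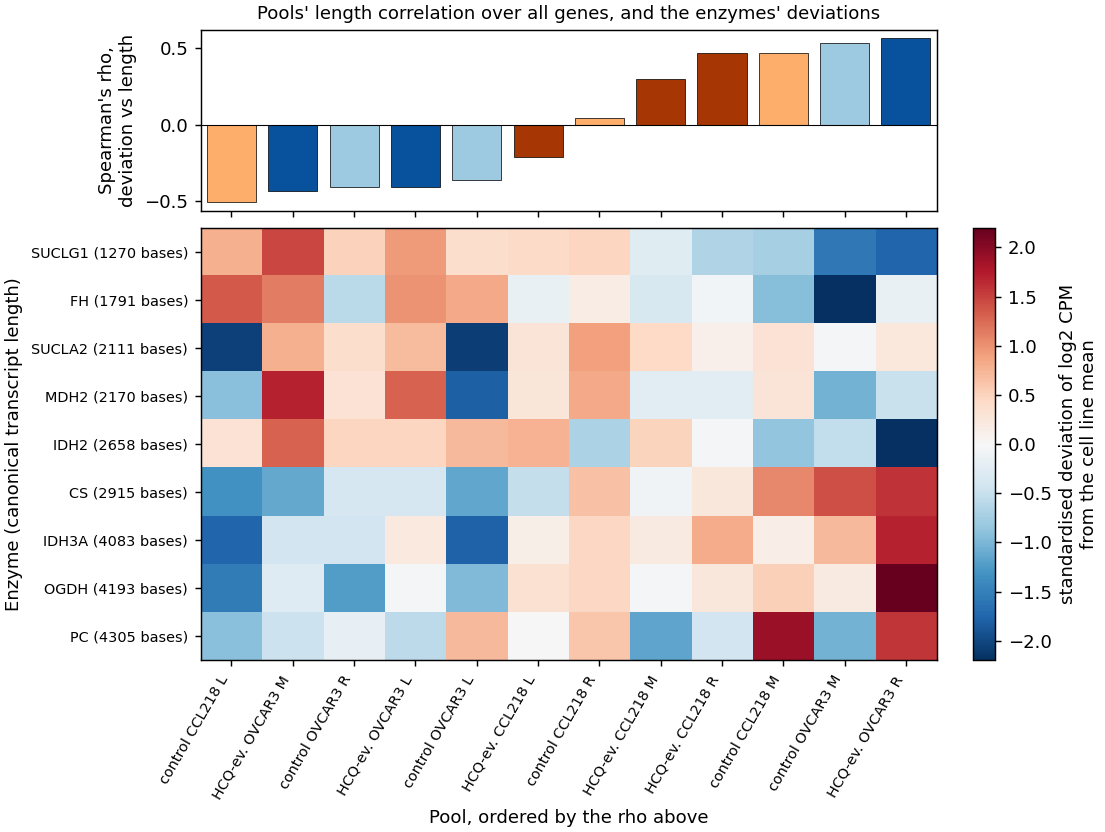
Upper panel: Spearman's rho between each pool's deviation from its line mean and transcript length, across genes, with pools in rising order. Lower panel: standardised deviation of log2 CPM for each enzyme in the same pools, with enzymes ordered by transcript length. SUCLG1, FH and IDH2 run from red to blue and CS, IDH3A and OGDH from blue to red as rho rises. PC, SUCLA2 and MDH2 follow rho less closely.

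Control CCL218 L, which had the lowest rho, held the lowest control CCL218 level of CS, IDH3A, OGDH, SUCLA2, MDH2 and PC. Leaving it out and also removing the trend with length and GC content called 5 of 9 enzymes in CCL218, against 42.3% of all genes: CS (log2 fold change -0.28), MDH2 (-0.26), PC (-0.23) and SUCLA2 (-0.21) below control and IDH2 (0.28) above it. This setting was chosen after the data were seen.

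The enzymes' chromosomes also differed in their median change. In OVCAR3 the median log2 fold change over tested genes was 0.20 on chromosome 7 (OGDH and MDH2), 0.18 on chromosome 15 (IDH2 and IDH3A) and 0.15 on chromosome 13 (SUCLA2), and it lay between -0.004 and 0.024 on chromosomes 1, 2, 11 and 12. In CCL218 it was -0.21 on chromosome 11 (PC), -0.18 on chromosome 13 and -0.13 on chromosome 7. It lay between 0.016 and 0.072 on chromosomes 1, 2, 12 and 15 there. Genes above 0 made up 68.7, 63.2 and 65.3% of those tested on chromosomes 7, 15 and 13 in OVCAR3. In CCL218 they made up 33.8, 30.6 and 35.4% on chromosomes 11, 13 and 7. On the chromosomes with these shares, 6 enzyme values had the sign of their chromosome's median. They were MDH2, IDH3A, SUCLA2 and OGDH in OVCAR3 (0.55, 0.54, 0.37 and 0.23) and PC and MDH2 in CCL218 (-0.14 and -0.06). IDH2 in OVCAR3 (-0.05) and SUCLA2 and OGDH in CCL218 (0.13 and 0.05) had the other sign. Beside the shares of all genes, the count was not read as a result about the enzymes. The part of the chromosomes' medians in the enzymes' values was not tested.

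The remaining genes of the pathway were taken in lists by role. Of the 10 other cycle subunits, 0 were called in OVCAR3, against 1.86% of all genes, and 0 in CCL218, against 6.46%. Their median log2 fold change was 0.32 in OVCAR3 (8 of 10 above 0) and 0.06 in CCL218 (7 of 10 above 0). At an unadjusted p of 0.05, 3 of the 10 passed in each line, where 16.2% of all genes in OVCAR3 and 25.2% in CCL218 did. The evolved pools lay above the control pools for 4 of the 10 in OVCAR3 and for 3 of the 10 in CCL218, where 13.0% and 18.6% of all genes did so. SDHA, the flavoprotein subunit of succinate dehydrogenase, had 339.9, 356 and 460.2 CPM in control OVCAR3 and 628, 672 and 492 CPM in HCQ-evolved OVCAR3. The evolved pools all stood higher, with a log2 fold change of 0.65 ± 0.21 (adjusted p = 0.176). In CCL218 SDHA had 274, 329 and 364 CPM in control and 508, 473 and 443 CPM in evolved pools, again apart, with a log2 fold change of 0.56 ± 0.14 (adjusted p = 0.0649; 0.0438 with the replicate block). SDHA shares sequence with pseudogenes, so its counts are uncertain to that degree. SUCLG2, named after its values were seen, had pools apart in both lines (log2 fold change 0.53 and 0.57, adjusted p = 0.269 and 0.120).

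Of the 6 genes of pyruvate entry, which import pyruvate and convert it to acetyl-CoA, 0 were called in either line. The share of all genes called was 1.86% in OVCAR3 and 6.46% in CCL218. Medians of the 6 genes were 0.04 in OVCAR3 and -0.30 in CCL218. The smallest p belonged to DLAT in OVCAR3 (log2 fold change 0.41, adjusted p = 0.513) and to PDHX in CCL218 (-0.32, adjusted p = 0.161). Of the 6 cytosolic partners and citrate export genes, 0 were called in either line, beside the same shares of all genes. ME1, cytosolic malic enzyme, had 13.8, 15.7 and 20.8 CPM in control OVCAR3 and 35.2, 31.9 and 37.7 CPM in HCQ-evolved OVCAR3. Its pools were apart, with a log2 fold change of 1.08 ± 0.22 (adjusted p = 0.0583). The adjusted p was 0.0425 without HCQ-evolved OVCAR3 R and 0.137 to 0.208 without any other single pool. Over all 16 alternatives ME1 was called in 8 (adjusted p = 0.000353 to 0.208), and with the replicate block it was not (0.142). The lowest value came from the DESeq2 Wald test, where 9.05% of all genes were called. In CCL218 ME1 had a log2 fold change of 0.47 ± 0.18 (adjusted p = 0.166).

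Of the 7 mitochondrial carriers and shuttle enzymes, 0 were called in OVCAR3, against 1.86% of all genes, and GOT1 had the smallest p there (log2 fold change 0.28, adjusted p = 0.505). In CCL218 1 fell, where 6.46% of all genes were called. This was SLC25A22, a mitochondrial glutamate carrier, with 84.4, 62.9 and 67.7 CPM in control and 41.5, 35.9 and 38.5 CPM in HCQ-evolved CCL218. Its pools were apart, with a log2 fold change of -0.90 ± 0.15 (adjusted p = 0.0196). The call was lost without control CCL218 R (adjusted p = 0.0701) and without HCQ-evolved CCL218 L, M or R (0.0951, 0.144 and 0.109), at estimates of -0.95 to -0.83. In OVCAR3 its log2 fold change was -0.11 ± 0.17 (adjusted p = 0.800), and the difference between the lines was -0.76 ± 0.22 (adjusted p = 0.170).

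Of the 12 anaplerotic and cataplerotic genes, which feed or drain the cycle, 1 fell in OVCAR3 and 0 were called in CCL218. Over all genes, 1.86% were called in OVCAR3 and 6.46% in CCL218. PCK1, cytosolic phosphoenolpyruvate carboxykinase, which draws oxaloacetate off toward glucose synthesis, was a low gene with 3.15, 1.89 and 2.74 CPM in control OVCAR3 and 0.525, 0.734 and 0.268 CPM in HCQ-evolved OVCAR3. The log2 fold change was -2.34 ± 0.41 (adjusted p = 0.0399). In CCL218 it had 1.03, 0.523 and 0.427 CPM in control and 1.85, 1.53 and 2.14 CPM in evolved pools, so the pools were apart in the opposite direction, with a log2 fold change of 1.48 ± 0.37 (adjusted p = 0.0588). PCK1 reached the filter on low values through its control pools alone in OVCAR3 and mainly through its evolved pools in CCL218, so it was tested because it was high in those groups. Without the filter its log2 fold change was -2.30 in OVCAR3 (adjusted p = 0.00687) and 1.53 in CCL218 (adjusted p = 0.0256). Tested directly, the difference between the lines was 3.84 ± 0.59 (adjusted p = 0.0121; 3.82 and 0.00176 without the filter), the sole call of the interaction in this list. With the replicate block the difference was 3.96 (adjusted p = 0.0787), and the log2 fold change was -2.39 in OVCAR3 (0.0848) and 1.53 in CCL218 (0.0229). The OVCAR3 call was also lost without HCQ-evolved OVCAR3 L (-2.36, adjusted p = 0.110) or M (-2.68, 0.0813), and without any of the 3 control pools PCK1 fell below the filter. In CCL218 it was called without control CCL218 L (1.94, adjusted p = 0.00117), where 25.2% of all genes were called, and not without any other single pool (adjusted p = 0.111 to 0.211).

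Of the 16 cofactor and regulator genes 14 were tested. Of these, 0 were called in OVCAR3, against 1.86% of all genes, and 0 in CCL218, against 6.46%. In CCL218 the smallest p belonged to SIRT5, a mitochondrial deacylase (log2 fold change 0.54 ± 0.13, adjusted p = 0.0512; 0.0330 with the replicate block). Of the 10 regulators of mitochondrial biogenesis 9 were tested, 0 were called in OVCAR3 and 1 fell in CCL218, where 1.86% and 6.46% of all genes were called. PPRC1, a transcriptional coactivator related to PGC-1, had 83.5, 94.0 and 81.1 CPM in control CCL218 and 49.3, 51.5 and 62.7 CPM in HCQ-evolved CCL218. The log2 fold change was -0.67 ± 0.14 (adjusted p = 0.0381), and in OVCAR3 it was -0.51 ± 0.25 (adjusted p = 0.381). The CCL218 call was lost without control CCL218 M (adjusted p = 0.0881) or R (0.113) and without HCQ-evolved CCL218 L (0.172), M (0.238) or R (0.0953), at estimates of -0.78 to -0.59.

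**Figure D5:**
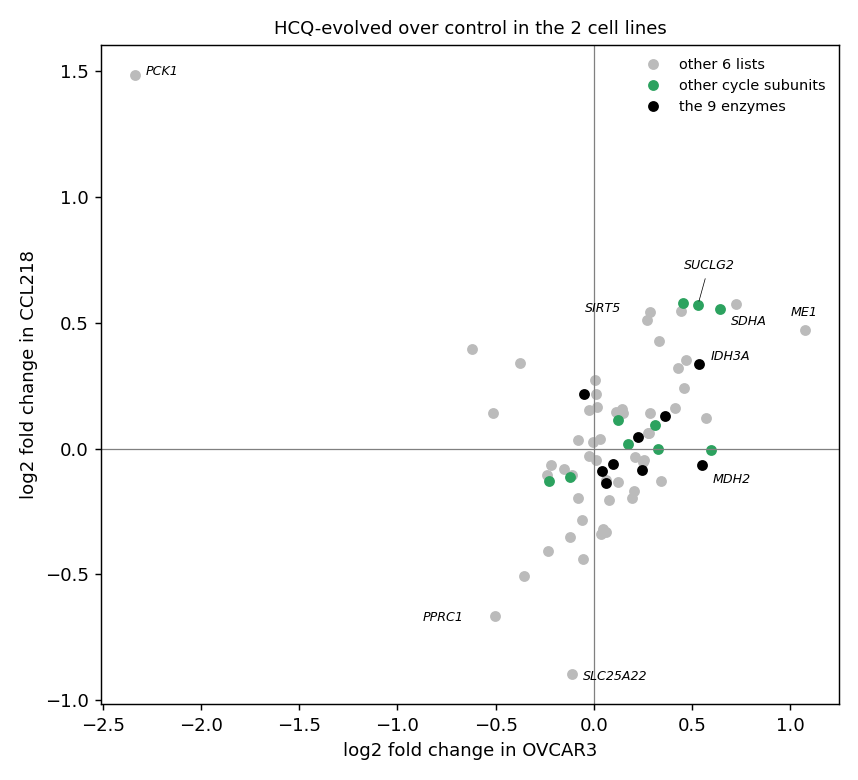
Log2 fold change of HCQ-evolved over control in OVCAR3 (x axis) and in CCL218 (y axis) for the 9 enzymes (black), the other cycle subunits (green) and the other 6 lists (grey). The enzymes lie near the centre, and PCK1 stands apart at -2.34 in OVCAR3 and 1.48 in CCL218.

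The genes outside these lists whose pattern was most like the mean standardised profile of the 9 enzymes over the 12 pools were VPS4A (Pearson's r of 0.98), SAE1 (0.96), USP5 (0.95), CDCA5 (0.95) and VCP (0.94). The profile itself was below 0 in the 3 control OVCAR3 pools (-0.57, -0.45 and -0.12) and above 0 in the 3 HCQ-evolved OVCAR3 pools (0.40, 0.45 and 0.29). Of single genes in OVCAR3, 25.7% had pools apart in either direction. The profile averaged enzymes whose pairs had a median r of 0.09, and none of the 9 had pools apart alone. In CCL218 it ran from -0.67 in control L to 0.42 in control R, and the evolved pools lay between these at 0.17, -0.11 and 0.00.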

How the data were processed

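The authors aligned paired-end reads of polyA RNA to hg38 with STAR, removed duplicates, and counted reads per gene with featureCounts; versions are not given in the sources used here. The deposited values are raw counts per gene symbol for 12 libraries of 31147822 to 59965861 counts. Removal of duplicates before counting can lower the counts of abundant short transcripts.

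Each line was fitted alone with edgeR 4.0.16 in R 4.3.3 (quasi-likelihood F test, TMM, robust; a gene was kept when 3 or more libraries reached 1 CPM; Benjamini-Hochberg threshold 0.05). The interaction and the control lines came from 1 fit of 12 libraries. Standard errors were |log2 fold change|/√F, intervals 95%. Lengths and positions came from GENCODE 44, which matched 91.1% of 28278 symbols. The fits of each line were run on counts simulated gene by gene, without a trend with transcript length or deviations shared by a pool's genes. That run therefore cannot show how the fits behave with those features. Alternatives used limma 3.58.1 and DESeq2 1.42.0.

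Members and lists were chosen with earlier results of these data known. The text names all 9 enzymes, and from each list the called genes (at most 4 per line) or the gene with the smallest p. Pools of the same plate position deviated together in CCL218 (r of 0.58, 0.31 and 0.24 across genes), so positions were taken to pair pools there, and in OVCAR3 they did not (0.45, -0.73 and -0.53). Values come from fits without the block; blocked values stand beside results whose call they change. No pair of pools agreed within counting noise. Some listed genes are not reported here.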

Additional observations from a re-analysis of the deposited data

Results flagged for a closer look

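PCK1 differed between the lines: the log2 fold change of HCQ-evolved over control was 3.84 higher in CCL218 than in OVCAR3 by edgeR's interaction test (adjusted p = 0.0121, range over 20 alternatives 2.93e-08 to 0.0787, called in 18 of them). The 2 that lost the call were the fits with plate position as a replicate block (3.96 and 3.80, adjusted p = 0.0787 and 0.0715). PCK1 was a low gene that reached the filter mainly through its higher group in each line; without the filter the difference was 3.82 (adjusted p = 0.00176). All 3 HCQ-evolved OVCAR3 pools lay below their controls and all 3 HCQ-evolved CCL218 pools above theirs. Groups of 3 pools were not screened for outlying samples.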

How the results depend on the processing

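Under every alternative run, 0 of 9 enzymes were called in OVCAR3 and in the interaction; in CCL218 the exceptions were 1 (without control CCL218 L) and 5 (without it and with the length and GC trend removed), and between the control lines 1 (pools' length correlation as covariate). With 1 pool left out the counts ran from 0 to 1 in CCL218. The median log2 fold change over the 9 ran from 0.13 to 0.27 in OVCAR3 and, changing sign, from -0.07 to 0.06 in CCL218. Of 648 recomputed values of single enzymes, 609 kept direction and call, 6 became called and 33 changed sign, none of them called in the original fit and 1, SUCLA2 in CCL218, called after the change (without control CCL218 L and the trend); the cause was not tested. With the length and GC trend removed the reversals were IDH2 in OVCAR3 (0.033), SUCLG1 in CCL218 (0.030, and 0.034 with the replicate block too) and FH between the control lines (0.015); without control OVCAR3 L and HCQ-evolved OVCAR3 R they were CS (-0.37), IDH2 (0.23), IDH3A (-0.17), PC (-0.007) and, outside the 9, DLAT (-0.017); without control CCL218 L and the trend, OGDH (-0.069) and SUCLA2 (-0.21). With 1 pool left out, values that changed sign ran in OVCAR3 for CS from -0.21 to 0.26, IDH2 from -0.25 to 0.18, SUCLG1 from -0.000 to 0.23 and PC from -0.038 to 0.11; in CCL218 for CS from -0.27 to 0.04, OGDH from -0.054 to 0.10, SUCLA2 from -0.13 to 0.33, FH from -0.18 to 0.026 and MDH2 from -0.21 to 0.06; in the interaction for CS from -0.32 to 0.13 and IDH3A from -0.56 to 0.21; between the control lines for CS from -0.016 to 0.33, IDH3A from -0.36 to 0.30, FH from -0.25 to 0.03 and PC from -0.14 to 0.028. Plate position as a replicate block called 0 of 9 enzymes in each comparison, with a median of 0.22 in OVCAR3 and -0.05 in CCL218; over all genes it called 81 in place of 227 in OVCAR3, 1744 in place of 791 in CCL218, 35 in place of 110 in the interaction and 16 in place of 431 between the control lines. Over all alternatives, all-gene calls ran from 3 to 2291 in OVCAR3 and from 102 to 5116 in CCL218. Some settings were chosen after the data were seen: the length covariate, and the replicate block together with the trend removed. So were the fits without control OVCAR3 L and HCQ-evolved OVCAR3 R, and without control CCL218 L and the trend. With 3 pools a group, an enzyme's change smaller than its interval was not detectable.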
